A study of Mus musculus with 6 samples.

Results

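The genes described here encode proteins of the elastic fibre and the proteins that hold latent TGF-beta in the matrix. They are the 4 latent TGF-beta binding protein genes Ltbp1, Ltbp2, Ltbp3 and Ltbp4, the microfibril genes Fbn1 and Mfap4, the elastin gene Eln, the fibulin gene Fbln5, and the cross-linking enzyme genes Lox and Loxl1. The rows were found by matching Ensembl mouse gene identifiers to these symbols, and all 10 genes had a row among the 35275 gene rows of the count tables. All 10 also passed the filter on low counts, which left 15191 genes tested, and the lowest count of any of them in a library was 1445.

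RNA was taken from whole lungs of Balb/c mice, perfused with 20 mL of PBS, 7 days after 250000 cells of 4T1 had been injected into a tail vein. 4T1 is a mouse mammary tumour line, derived from Balb/c, whose cells seed the lung. In the WT group (3 libraries) the injected cells were 4T1.WT, and in the KO group (3 libraries) they were 4T1.PD-L1 KO, a derivative without PD-L1. The host mice of both groups carry no labelled edit, so KO names the injected cells and not the lung. No tumour-free lung was analysed here, and neither the sex and age of the mice nor the clonal origin of the KO cells is given in the sources used here. The series title concerns tumour PD-L1, type I interferon and T cell recruitment, and the comparison asks how lung RNA differs with the PD-L1 status of the tumour cells. That status cannot be told apart from other differences between the injected lines or from a difference in tumour load.

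As background, elastic fibres give the lung its recoil. A core of cross-linked elastin is laid down on a scaffold of fibrillin microfibrils, guided by fibulins and fixed by lysyl oxidases, and in the lung it is made mainly by fibroblasts, smooth muscle cells and other mesenchymal cells. The same microfibrils anchor latent TGF-beta through the latent TGF-beta binding proteins (LTBPs), which are built much like fibrillin. LTBP-1, LTBP-3 and LTBP-4 bind the latent growth factor, whereas LTBP-2 does not and is a microfibril component.

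Libraries held 14711459 to 16932114 counts and 17520 to 19156 detected genes. Cd274, the gene of PD-L1, had 910 to 1132 counts in WT and 1514 to 4929 counts in KO libraries (log2 difference 1.65 ± 0.42, edgeR adjusted p = 0.161). Host cells keep the gene, so it does not check the labels of whole lungs. Lung identity genes were high in both groups, with Sftpc of alveolar type 2 cells at 7846 ± 481.2 CPM in the WT and 7783 ± 1063 CPM in the KO group (SD, n = 3 per group). Keratin genes typical of basal-type carcinoma were at or near 0: Krt6a had no count in any library, and Krt14 was at 0.293 ± 0.277 and 1.005 ± 0.763 CPM. CPM are counts scaled to library size, computed with edgeR after TMM scaling.

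The first comparison was of the 10 genes between KO and WT lungs. Ltbp2 and Ltbp4 were lower in lungs with PD-L1 KO tumour cells, by 1.62-fold and 1.45-fold. The other 8 genes did not pass the test over all genes, and their KO means were also below their WT means. Of the 10 genes, 2 were lower and 0 were higher by edgeR's quasi-likelihood test at an adjusted p below 0.05, against 0.336% of all tested genes called lower and 1.12% called higher. DESeq2 called 5 lower, where it called 1.66% of all genes lower and 2.53% higher. Limma-voom called 2 lower, where it called 0.355% of all genes lower and 1.01% higher. Neither called any of the 10 higher. At an unadjusted p below 0.05, 9 of the 10 were lower and 0 higher, where 14.6% of all tested genes passed in either direction, 6.33% lower and 8.29% higher. In 8 of the 10 genes all KO libraries lay below all WT libraries, which held for 9.4% of all tested genes, and in 0 did all KO libraries lie above, as in 10.3% of tested genes. The log2 fold change was below 0 for 10 of the 10, against 49% of tested genes. Their median log2 fold change was −0.37, from −0.69 to −0.26, beside a median of 0.01 and an interquartile range of −0.18 to 0.23 over all tested genes. The 10 genes were chosen with results of these data known, and they need not vary independently of one another. The levels are relative to the other RNA of each whole-lung library. Lower values of these genes can thus mean fewer cells of a type, less RNA per cell or more RNA from other cells. These cannot be told apart here.

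**Figure D1:**
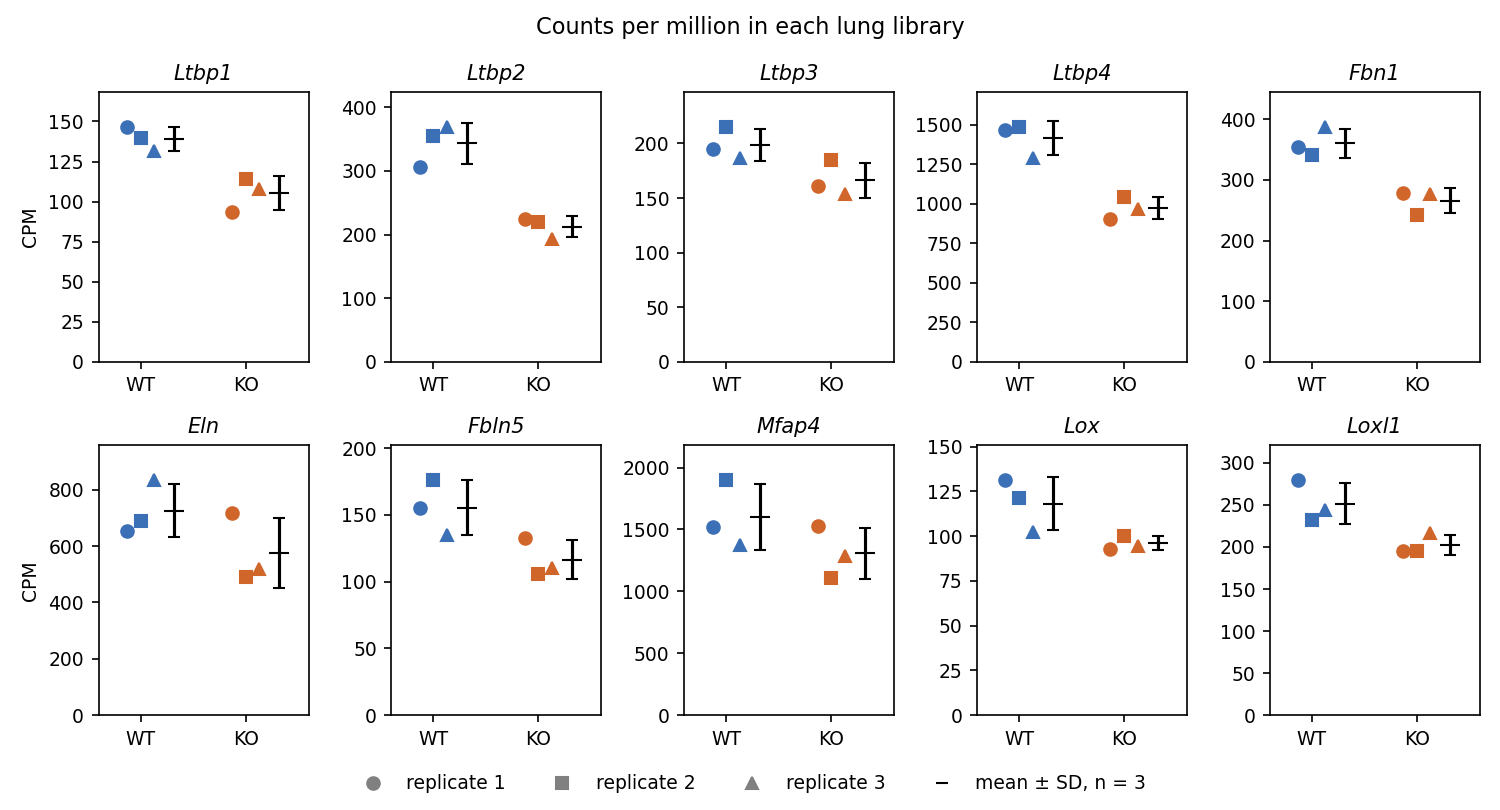
Each panel plots 1 gene, with CPM on the y axis (from 0) and the WT and KO libraries on the x axis; symbols mark the replicate and the bar is the mean ± SD of 3 libraries. The KO libraries lie below all WT libraries in 8 panels, and the groups overlap for Eln and Mfap4.

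Among the LTBP genes, Ltbp2 (ENSMUSG00000002020, chromosome 12, 84783212 to 84876532, GRCm38) showed the largest difference of the 10 genes. Its WT libraries 1 to 3 had 307, 355 and 369 CPM and its KO libraries 224, 219 and 194 CPM. The highest KO library was below the lowest WT library, and the SD was 32.5 CPM in the WT and 16.3 CPM in the KO group. The log2 fold change was −0.69 ± 0.11 (SE, edgeR adjusted p = 0.0112), and by p Ltbp2 stood at place 26 of all tested genes. Among the 51 genes called lower it had the 8th largest decrease, where the median of those 51 was −0.56. The call was lost without WT replicate 2 (adjusted p = 0.0667) or KO replicate 2 (adjusted p = 0.0710).

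Ltbp4 (ENSMUSG00000040488, chromosome 7, 27305136 to 27337692), which carries latent TGF-beta and is also needed for elastic fibre assembly in the lung, was at 1469.8, 1485 and 1289 CPM in the WT libraries. The KO libraries were at 907, 1043 and 969 CPM. All KO libraries were thus lower than any WT library. Ltbp4 fell by 0.54 ± 0.11 on the log2 scale (edgeR adjusted p = 0.0304). This call was lost without WT replicate 1 (adjusted p = 0.129), WT replicate 2 (0.126), KO replicate 2 (0.133) or KO replicate 3 (0.0996). It was also lost with an offset for gene length and GC content, where the log2 difference was −0.39 (adjusted p = 0.113), while Ltbp2 kept its call there at −0.58 (adjusted p = 0.0234).

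Ltbp1 (ENSMUSG00000001870, chromosome 17, 75005568 to 75392512), the LTBP first found with latent TGF-beta, was at 146, 139.8 and 131 CPM in the WT group and 93.7, 114 and 108 CPM in KO libraries. The groups did not overlap, but the log2 difference of −0.40 ± 0.11 missed the threshold (edgeR adjusted p = 0.0917). Ltbp1 passed with DESeq2 (adjusted p = 0.0266) and with edgeR without a filter on low counts (0.0419). It missed the threshold in 14 of 16 alternative fits. Ltbp3 (ENSMUSG00000024940, chromosome 19, 5740904 to 5758532) had the smallest difference of the 10 genes. It ranged from 187 to 215 CPM in the WT group and from 153 to 184 CPM in KO lungs, with a log2 difference of −0.26 ± 0.11 (adjusted p = 0.285). The lowest WT library and the highest KO library were nearly level.

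Sequence in front of the 2 genes that passed the test is shown because both are LTBP genes whose RNA was lower in KO lungs. RefSeq start-site windows on GRCm38.p6 were found for Ltbp1, Ltbp2, Ltbp3, Ltbp4, Fbn1 and Fbln5, 6 of the 10 genes, with 10 windows among them. The stretches below run 5′ to 3′ on the minus strand, end where the annotated gene begins, and carry in capitals each CAGAC or its reverse complement GTCTG, the core of the SMAD element through which TGF-beta signalling can act. They lie at chr12:84876533-84876741 (209 bases, Ltbp2) and chr7:27337693-27337862 (170 bases, the outermost of 3 windows of Ltbp4).
Ltbp2: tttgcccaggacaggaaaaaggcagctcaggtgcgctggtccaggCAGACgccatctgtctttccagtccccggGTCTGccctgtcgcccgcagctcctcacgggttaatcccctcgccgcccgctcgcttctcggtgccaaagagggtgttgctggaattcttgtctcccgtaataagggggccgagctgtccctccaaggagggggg
Ltbp4: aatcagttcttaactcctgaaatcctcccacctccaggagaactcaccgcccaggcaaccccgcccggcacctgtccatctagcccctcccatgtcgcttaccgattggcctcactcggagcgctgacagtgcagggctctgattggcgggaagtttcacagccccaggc
The Ltbp2 stretch holds 2 such matches and the Ltbp4 stretch holds 0. Searched over the 250 bases before each start on both strands, CAGAC was found in windows of Ltbp1, Ltbp2, Ltbp3 and Fbln5, in 5 of the 10 windows, and in 42.2% of all 32851 windows of the table. The AP-1 site TGANTCA (6.75% of all windows), the TEAD element GGAATG (12.6%) and the CArG box of smooth muscle genes (1.47%) were in 0 of the 10 windows. A match is a description of the letters only, and counts per gene do not show which start was used.

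Of the microfibril genes, Fbn1 (ENSMUSG00000027204, chromosome 2, 125300594 to 125507993), which encodes fibrillin-1, the backbone of the microfibril, was at 354, 341 and 387 CPM in the WT libraries. In the KO libraries it was at 278, 242 and 277 CPM. The groups were separate, and the log2 difference of −0.44 ± 0.11 missed the threshold (edgeR adjusted p = 0.0571). Over the 16 other fits its adjusted p ran from 0.00199 to 0.308, and Fbn1 passed with DESeq2 (0.00199), without a filter on low counts (0.00979), without KO replicate 1 (0.0305) and with the replicate number as a block (0.0331). Mfap4 (ENSMUSG00000042436, chromosome 11, 61485431 to 61488900), a microfibril-associated protein that binds elastin and fibrillin, ranged from 1378 to 1896 CPM in the WT group and from 1109.8 to 1525 CPM in KO lungs. These ranges overlap, and the log2 difference of −0.29 ± 0.14 did not pass (adjusted p = 0.368). The KO library inside the WT range was KO replicate 1. Mfap4 exons overlap exons of Mapk7 on the opposite strand, which had at most 551 counts against at least 16937 for Mfap4. Without a stated strand setting, reads of such a pair cannot be told apart.

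Eln (ENSMUSG00000029675, chromosome 5, 134702593 to 134747323), the gene of the elastin precursor, was at 654, 689 and 833 CPM in the WT group and 718, 490.1 and 519.5 CPM in KO libraries. KO replicate 1 lay between WT replicates 2 and 3, and the other KO libraries lay below all WT libraries. With all 6 libraries the log2 difference was −0.33 ± 0.15 (edgeR adjusted p = 0.305), and without KO replicate 1 it was −0.53 and passed (adjusted p = 0.0239). Fbln5 (ENSMUSG00000021186, chromosome 12, 101746565 to 101819055), which brings elastin to microfibrils and lysyl oxidases, was at 155, 176 and 135 CPM in the WT group and 133, 105 and 111 CPM in KO libraries. Here too KO replicate 1 was the highest of its group, close under WT replicate 3. The log2 difference of −0.42 ± 0.13 did not pass (adjusted p = 0.127), and without KO replicate 1 it was −0.53 (adjusted p = 0.0355). Fbln5 also passed with DESeq2 (adjusted p = 0.0476) and with edgeR without a filter on low counts (0.0273). It missed the threshold in 13 of the 16 other fits.

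KO replicate 1 was not high throughout. It was the lowest KO library for Ltbp1, Ltbp4 and Lox, and the highest for Ltbp2, Fbn1, Eln, Fbln5 and Mfap4. For Ltbp2, Fbn1 and Fbln5 this left the groups separate, and for Eln and Mfap4 it did not.

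The cross-linking enzymes differed least from library to library in the KO group. Loxl1 (ENSMUSG00000032334, chromosome 9, 58287738 to 58313186), a lysyl oxidase that acts with fibulin-5 in elastin maintenance, ranged from 232 to 279 CPM in the WT group and from 195 to 216 CPM in KO lungs. Its log2 difference was −0.31 ± 0.11 (edgeR adjusted p = 0.176). Lox (ENSMUSG00000024529, chromosome 18, 52516067 to 52529867), which cross-links both elastin and collagen, ranged from 102 to 131 CPM in the WT group and from 93.0 to 100.4 CPM in KO lungs. The KO libraries of Lox had a coefficient of variation of 4.04%, against 12.5% in WT. For both enzymes the groups were separate and the test was not passed (Lox log2 difference −0.30 ± 0.11, adjusted p = 0.233).

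**Figure D2:**
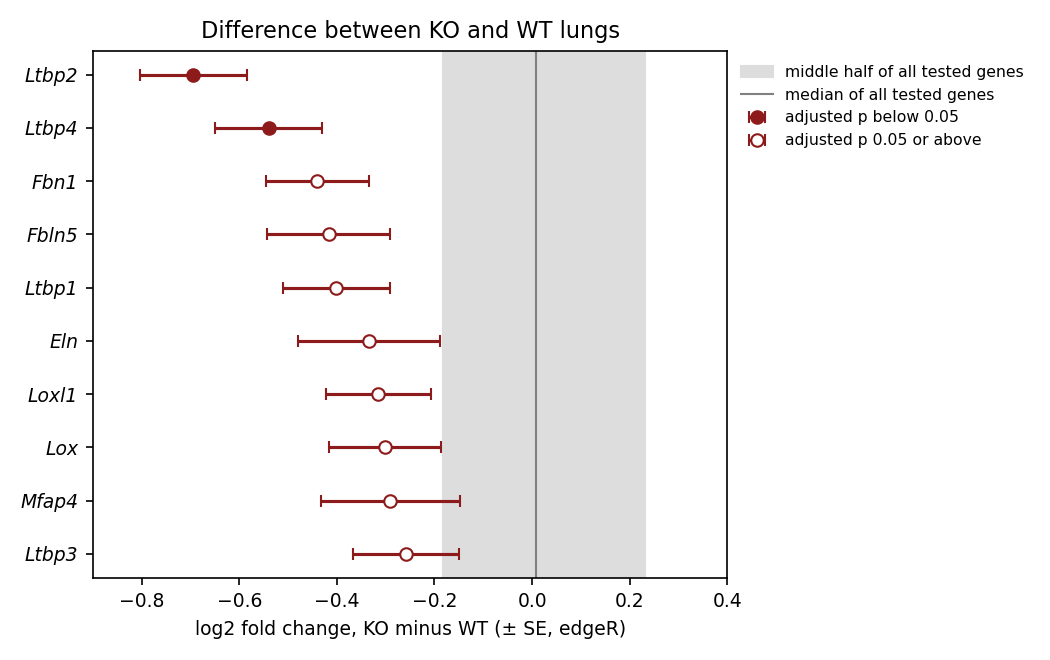
The x axis is the log2 fold change of KO minus WT with its SE from edgeR, 1 row per gene, with filled points for an adjusted p below 0.05; the grey band is the interquartile range and the grey line the median of 15191 tested genes. All 10 points lie left of the band, and Ltbp2 (−0.69) and Ltbp4 (−0.54) are the filled points.

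Leaving out single libraries moved the number of genes called among the 10 from 0 to 5. Calls over all genes moved with it. Without WT replicate 2 or KO replicate 2 it was 0, where 0.0128% of all genes were called lower in each fit. Without WT replicate 1 or KO replicate 3 it was 1, where 0.0318% and 0.0258% were lower. It was 2 without WT replicate 3, where 0.217% were lower, and 5 without KO replicate 1 (Ltbp2, Ltbp4, Fbn1, Fbln5 and Eln), where 1.11% were lower. The log2 fold change was negative for all 10 genes in each of these 6 fits, and their median ran from −0.45 without KO replicate 1 to −0.35 without KO replicate 2. Ltbp2 stayed between −0.77 and −0.64. Mfap4 ran from −0.42 without KO replicate 1 to −0.15 without WT replicate 2.

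**Figure D3:**
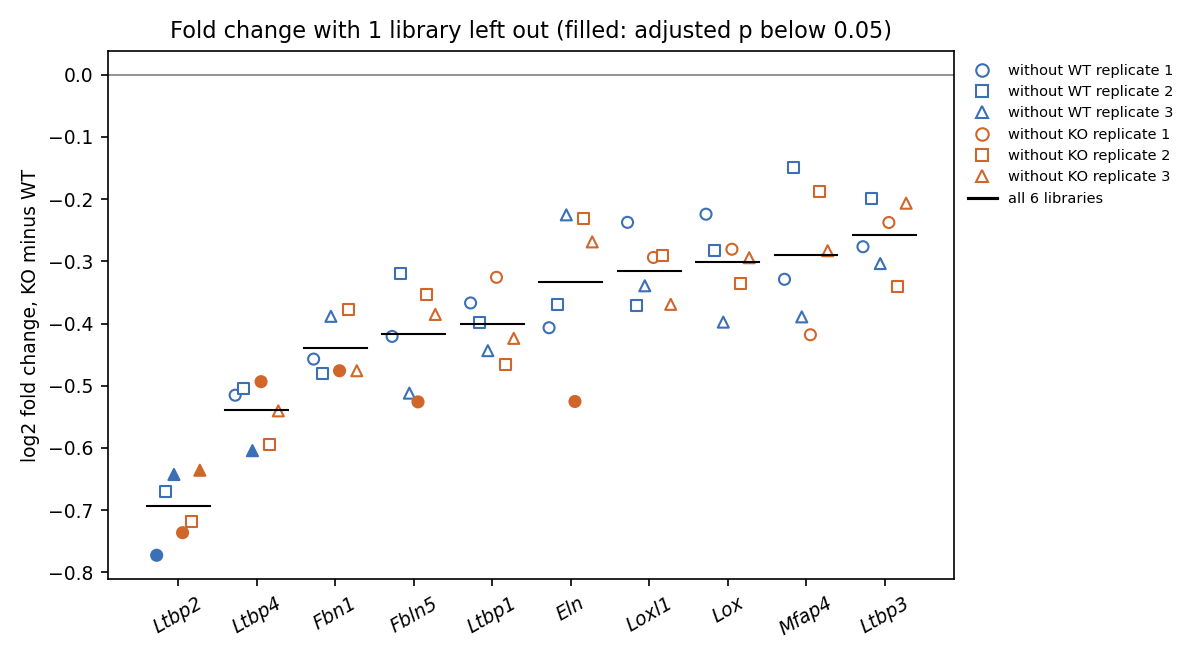
For each gene the y axis gives the log2 fold change of KO minus WT in 6 fits that each leave out 1 library (symbol and colour name the library), and the black line is the value from all 6 libraries; filled symbols passed at an adjusted p below 0.05. All symbols lie below 0, and the fit without KO replicate 1 has 5 filled symbols.

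Levels were then compared between the genes as TPM, that is, counts divided by exonic length and scaled to the same sum in every library. Mfap4 was the most abundant transcript by far, at 3065 ± 629.6 TPM in WT and 2330 ± 413.1 TPM in KO lungs. Ltbp4 followed at 804.6 ± 84.1 and 514.7 ± 32.1 TPM. Averaged over the 6 libraries, Mfap4 was 4.18 ± 0.833 times as abundant as Ltbp4 and Ltbp4 2.34 ± 0.489 times as abundant as Eln (SD, n = 6). By this exonic length the ranges did not overlap. By the same length, Eln (286.2 TPM over all libraries) and Loxl1 (244.7 TPM) did not differ beyond their spread, with Eln higher in 4 of 6 libraries. How far Eln stood from Ltbp4 and Loxl1 depended on the length used, as given below. Loxl1 was about 2.11 ± 0.431 times as abundant as Ltbp2.

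The lower end of the order was close. Ltbp2 averaged 122 TPM, Fbn1 91.9, Lox 79.8, Ltbp3 71.6, Fbln5 70.2 and Ltbp1 40.7 TPM. Ltbp2 was above Fbn1 in all 6 libraries, by 1.04-fold to 1.54-fold. The range of each of the genes from Ltbp2 to Fbln5 overlapped that of its neighbour, and Ltbp3 was above Fbln5 in 3 of 6 libraries. Ltbp1 was below Fbln5 in every library. With the length of the longest transcript in place of all exons, Eln rose to 469.3 TPM and Ltbp3 moved above Fbn1 and Lox. Eln and Ltbp4 were then at 400.6 ± 94.8 and 482.9 ± 31.1 TPM in KO lungs, closer than by all exons. In WT lungs they were at 538.0 ± 63.3 and 752.3 ± 76.6 TPM. Loxl1 was then further below Eln, at 218.0 ± 17.7 TPM in WT and 163.8 ± 6.52 TPM in KO lungs.

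**Figure D4:**
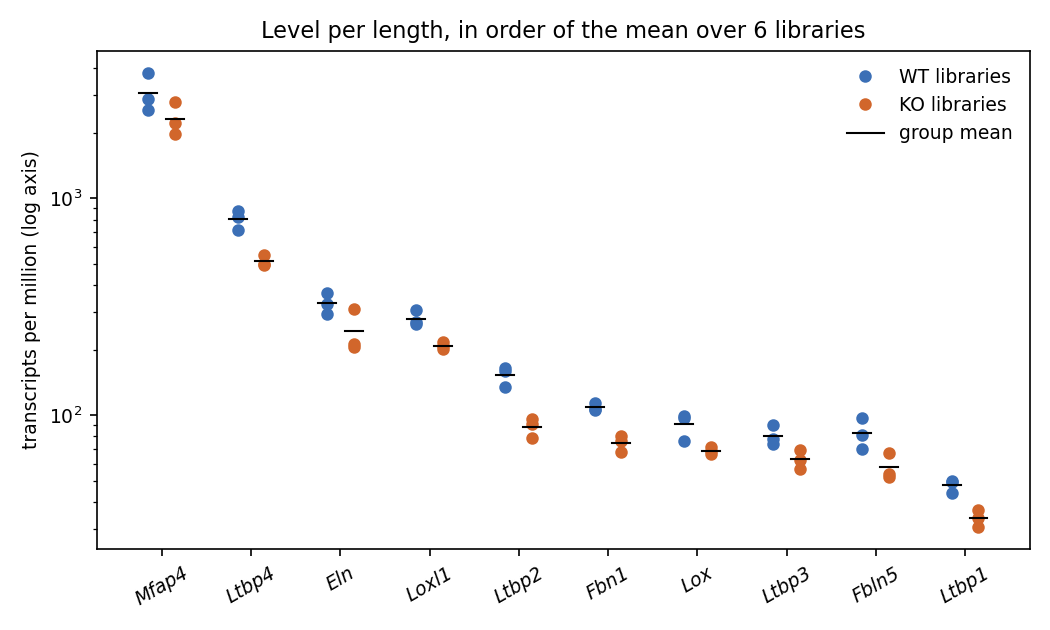
The y axis gives TPM on a log scale for each library, with the genes on the x axis in order of their mean over 6 libraries; black lines are group means. The order runs from Mfap4 (2697 TPM over all libraries) to Ltbp1 (40.7 TPM), and Ltbp2 drops from 154 TPM in WT to 88.9 TPM in KO lungs.

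Within the LTBP family, Ltbp4 made up 73.9 ± 1.94% of the summed TPM in WT and 73.5 ± 1.25% in KO lungs. Ltbp2 held 14.2 ± 1.88% and 12.7 ± 1.22%, Ltbp3 7.41 ± 0.246% and 8.95 ± 0.457%, and Ltbp1 4.403 ± 0.174% and 4.81 ± 0.270%. The share of Ltbp3 was 7.15% to 7.64% in WT and 8.42% to 9.27% in KO libraries, without overlap. The ranges of Ltbp2 and Ltbp4 shares overlapped between the groups. These shares were not tested.

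Other elastic fibre genes were less uniform. Of 18 tested genes of other microfibril, fibulin, emilin and cross-linking proteins, 0 passed by edgeR or limma-voom in either direction, DESeq2 called 1 lower, and 6 were lower and 0 higher at an unadjusted p below 0.05. Their median log2 fold change was −0.22, and 14 of 18 were negative. Adamtsl2, a secreted glycoprotein that binds fibrillin-1 and LTBP-1, had the smallest p, with 97.1 ± 2.94 CPM in the WT and 72.9 ± 4.06 CPM in the KO group (log2 difference −0.41 ± 0.11, edgeR adjusted p = 0.0742). Loxl2, a further lysyl oxidase, was at 38.7 ± 5.27 and 28.5 ± 1.95 CPM (adjusted p = 0.176).

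Among 12 tested elastin-degrading proteases and their inhibitors, 1 rose and 1 fell, with a median of 0.20. With 1 library left out that median ran from 0.06 (without WT replicate 1) to 0.41 (without WT replicate 3). DESeq2 called 1 higher and 2 lower, and limma-voom 1 higher and 1 lower. At an edgeR unadjusted p below 0.05, 2 were higher and 2 lower. Ctss, the elastolytic cathepsin S of macrophages and other antigen-presenting cells, was higher in KO lungs and rose from 284.3 ± 64.9 to 543.8 ± 133.9 CPM (by 0.94 ± 0.20 on the log2 scale, edgeR adjusted p = 0.0433). Mmp2, a gelatinase made by mesenchymal cells, fell from 251 ± 6.69 to 187 ± 6.34 CPM (−0.43 ± 0.10, adjusted p = 0.0451). The inhibitor genes Timp1 (log2 difference 1.35 ± 0.41, adjusted p = 0.131) and Timp2 (−0.29 ± 0.10, adjusted p = 0.195) lay on opposite sides and did not pass. Leaving out WT replicate 1, WT replicate 2, KO replicate 2 or KO replicate 3 ended both calls, and leaving out WT replicate 3 ended that of Mmp2, at adjusted p of up to 0.200 for Ctss and 0.249 for Mmp2. With the length and GC offset Ctss lost its call (0.0965) and Mmp2 kept it (0.0284). Of the 12 genes, 1 rose without WT replicate 3, 2 rose and 1 fell without KO replicate 1, and 0 passed without any of the other 4 libraries.

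In the TGF-beta pathway itself, 0 of 21 tested genes of ligands, activators, receptors and Smads passed by edgeR, DESeq2 or limma-voom. At an unadjusted p below 0.05, 2 were lower and 0 higher, and the median was −0.07. These were Itgb5, an integrin subunit that can take part in activation of latent TGF-beta (log2 difference −0.32 ± 0.11, edgeR adjusted p = 0.162), and the ligand gene Tgfb2 (−0.35 ± 0.14, adjusted p = 0.242). The ligand genes Tgfb1 and Tgfb3, named for their role after their values had been seen, were at 163 ± 8.15 and 177.5 ± 15.9 CPM and at 53.3 ± 3.70 and 47.0 ± 8.70 CPM in WT and KO lungs, in that order. Neither passed (adjusted p = 0.648 and 0.626).

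Of 18 tested TGF-beta induced genes, 2 fell and 0 rose by edgeR, with a median of −0.24. DESeq2 called 4 lower and limma-voom 2, and neither called any higher. At an edgeR unadjusted p below 0.05, 7 were lower and 1 higher. One of the 2 called by edgeR was Ltbp2 itself, which stands in both lists. The other was Igfbp3, a binding protein of insulin-like growth factors, which fell from 257 ± 25.5 to 179.8 ± 22.9 CPM (−0.52 ± 0.12, edgeR adjusted p = 0.0468). Postn, a matricellular protein of fibroblasts (−0.40 ± 0.10, adjusted p = 0.0720), and Tnc, the tenascin-C gene (−0.51 ± 0.15, adjusted p = 0.132), did not pass. The call of Igfbp3 was lost without each of the WT replicates and without KO replicate 2 or 3 (adjusted p of up to 0.227), and 0 genes of the list fell without WT replicate 2 or KO replicate 2. Without KO replicate 1, 3 fell and 1 rose, and in each of the remaining 3 fits 1 fell.

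Markers of cell types that make or border elastic fibres were read beside the 10 genes. Of 8 pericyte markers 2 fell, Notch3, a receptor of mural cells, from 304 ± 12.4 to 201 ± 19.7 CPM (−0.60 ± 0.11, edgeR adjusted p = 0.0161), and Pdgfrb, the PDGF receptor of pericytes, from 340.4 ± 23.1 to 221 ± 43.2 CPM (−0.63 ± 0.13, adjusted p = 0.0347). The median of the list was −0.42, all 8 log2 differences were negative, and the summed level was 1571 to 1668 CPM in the WT group and 1049.5 to 1276 CPM in KO libraries. Of 10 smooth muscle markers 1 fell, Synpo2 (−0.74 ± 0.17, adjusted p = 0.0458), while Myh11 did not pass (−0.73 ± 0.22, adjusted p = 0.151). That list had a median of −0.33 and sums of 605.4 to 919.3 CPM in the WT group and 479.1 to 628.2 CPM in KO libraries. Of 14 lung fibroblast markers 1 fell, Pdgfra (−0.46 ± 0.11, adjusted p = 0.0485), and Limch1 missed the threshold (−0.49 ± 0.11, adjusted p = 0.0501). The fibroblast median was −0.04, with sums of 6150 to 6721 CPM in the WT group and 5144 to 5691 CPM in KO libraries. That median changed sign without WT replicate 3 (0.11) or KO replicate 1 (0.09). None of these markers was at 0, and Postn stands in both the pericyte and the TGF-beta induced list. DESeq2 called 4 pericyte, 1 smooth muscle and 3 fibroblast markers lower. Limma-voom called 2, 0 and 2 lower, in that order, and neither called any higher. At an edgeR unadjusted p below 0.05, 7, 4 and 4 were lower, and 1 fibroblast marker was higher.

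Of 10 pan-leukocyte markers 3 rose and 10 had positive log2 differences, with a median of 0.50. DESeq2 called 4 higher and limma-voom 2, and 7 were higher at an edgeR unadjusted p below 0.05. By each of these rules 0 were lower. Cd52 rose from 46.0 ± 2.65 to 92.3 ± 26.9 CPM (edgeR adjusted p = 0.0144) and Coro1a, an actin regulator of leukocytes, from 203 ± 6.35 to 307 ± 59.5 CPM (adjusted p = 0.0402). The summed level was 1719 to 2320 CPM in the WT group and 2259 to 2947 CPM in KO libraries, and these ranges overlapped. KO replicate 1 had the lowest sum of its group. With the length and GC offset, Pdgfra (adjusted p = 0.106), Synpo2 (0.111), Coro1a (0.0693) and Cd53 (0.228) lost their calls, which left 0 fibroblast, 0 smooth muscle and 1 leukocyte marker called, while 3 pericyte markers fell. No marker of these 4 lists passed without WT replicate 1, WT replicate 2 or KO replicate 2. Without KO replicate 3, 1 leukocyte marker rose and 0 of the others passed. Without WT replicate 3, 3 leukocyte markers rose, and 2 pericyte, 2 smooth muscle and 0 fibroblast markers fell. Without KO replicate 1, 5 leukocyte markers and 1 fibroblast marker rose, and 3 pericyte, 3 fibroblast and 0 smooth muscle markers fell. The part of these cell types in the lower levels of the 10 genes was not tested.

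**Figure D5:**
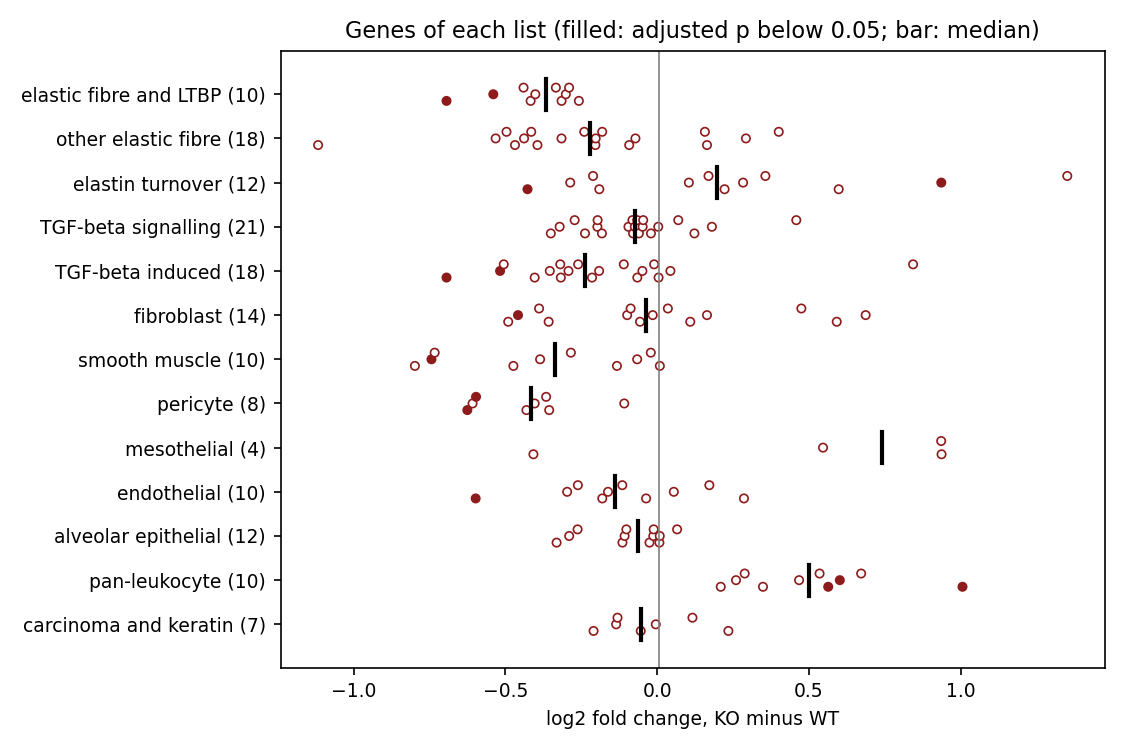
Each point is 1 tested gene placed by its log2 fold change of KO minus WT (x axis) in the list named on the y axis with its number of tested genes; filled points passed at an adjusted p below 0.05, black bars are list medians and the grey line is the median of all tested genes. The 10 elastic fibre and LTBP genes have a median of −0.37, beside −0.42 for the pericyte and −0.33 for the smooth muscle markers. The medians of the pan-leukocyte (0.50), mesothelial (0.74) and elastin turnover (0.20) lists lie above 0, and those of all other lists below 0. The mesothelial median rests on 4 genes and was −0.17 without KO replicate 3.

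The genes with the profile most like that of Ltbp2 were found among 12683 tested genes with an average log2 CPM of at least 1, leaving out Ltbp2 itself. Likeness was the root-mean-square difference between log2 CPM profiles over the 6 libraries, each centred on its mean. The 5 nearest were Ptprd (0.074), Ago4 (0.085), Notch3 (0.086), Adamtsl3 (0.088) and Neurl1a (0.093). They were chosen for a profile like that of Ltbp2, so lower levels in KO libraries are built into the choice. Neurl1a was low, at 4.68 ± 0.063 CPM in the WT and 2.83 ± 0.423 CPM in the KO group. Ptprd, a receptor tyrosine phosphatase gene, fell from 147 ± 13.5 to 99.9 ± 9.68 CPM (edgeR adjusted p = 0.0321), and Ago4, Adamtsl3 and Neurl1a did not pass (adjusted p = 0.109, 0.0809 and 0.378). Leaving out WT replicate 1, WT replicate 2, KO replicate 2 or KO replicate 3 ended the calls of Ptprd and Notch3, and leaving out WT replicate 3 that of Ptprd, at adjusted p of up to 0.156 and 0.132. With the length and GC offset Ptprd lost its call (0.105) and Notch3 kept it (0.0380). Of the other 9 elastic fibre and LTBP genes, Ltbp4 was nearest to Ltbp2, at 0.178, and Mfap4 farthest, at 0.290.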

How the data were processed

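Each library has 1 deposited table of raw read counts for Ensembl genes. The authors made it from paired-end reads with STAR 2.5 (mm10, GRCm38) and HTSeq 0.6.1, per the submitters' processing notes and the series' design text. Strand setting, counting mode and annotation release: not given in the sources. Symbols, coordinates (counted from 1) and exonic lengths came from GENCODE M21 by exact identifier (34490 of 35275 matched). The counts of no 2 libraries agreed within sampling noise (chi-square per degree of freedom 15.36 to 55.68). Nothing in the labels ties a library to 1 mouse, so a p-value here reflects only spread among these libraries, which may be technical.

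KO and WT were compared with edgeR 4.0.16 in R 4.3.3 (filterByExpr with a minimum count of 10, TMM, quasi-likelihood F-test with robust=TRUE, group alone), two-sided, with Benjamini-Hochberg adjustment over 15191 genes and a threshold of 0.05. The SE was obtained as the absolute log2 fold change over the root of F. Alternatives were other scalings and filters, robust=FALSE, DESeq2 1.42.0, limma-voom (limma 3.58.1), each replicate left out, the replicate number as a block, other thresholds and, for TPM, another gene length. An offset from splines (5 degrees of freedom) on length and GC content was chosen after seeing the data.

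The genes and lists were chosen with earlier results of these data known, so no list was tested as a set. Text names all 10 genes, in each pathway list those that passed and the 2 next by p, in each marker list the 2 smallest p, and the 5 nearest profiles to Ltbp2, leaving out Gm, Rik and pseudogene symbols.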

Additional observations from a re-analysis of the deposited data

How the results depend on the processing

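The direction of all 10 genes was the same in the 16 alternative fits, with median log2 fold changes from −0.45 to −0.33. The number of the 10 called lower was 5 without a filter on low counts and with DESeq2, 1 with the length and GC offset, 0 at a threshold of 0.01 and 4 at 0.1, and 0 to 5 with 1 replicate left out. In the same settings the genes called higher and lower over all genes were 578 and 225 without a filter, 354 and 233 with DESeq2, 82 and 28 with the offset, 23 and 2 at 0.01, 315 and 160 at 0.1, and 22 to 404 and 2 to 174 with 1 replicate left out. The cause was not tested. With the replicate number as a block, 309 genes were higher and 96 lower, and 3 of the 10 genes were lower. The labels do not pair the samples, and same-numbered libraries did not deviate together (correlations 0.027, −0.019 and 0.009), nor did every library correlate best with its own number. With the longest transcript as the length, Eln moved to 469.3, Loxl1 to 190.9, Ltbp3 to 88.5, Lox to 62.8 and Ltbp1 to 50.9 TPM. Counting depth behind the 10 genes was at least 1445 counts per library.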

Other observations

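Markers of cell types that line the airspaces and vessels were also counted, and no difference between lists was tested. Of 12 alveolar epithelial markers 0 passed by edgeR or limma-voom, 1 was lower by DESeq2, and 2 were lower at an unadjusted p below 0.05, with a median log2 difference of −0.06, which was 0.01 without WT replicate 2. Their summed level was 15206 to 17433 CPM in WT and 14746 to 18106 CPM in KO libraries. The smallest p-values were those of Cav1 (−0.33 ± 0.12, edgeR adjusted p = 0.187), the caveolin gene, and Abca3 (−0.29 ± 0.11, adjusted p = 0.236), the lipid transporter of surfactant. Of 10 endothelial markers 1 fell, Vwf, the von Willebrand factor gene, from 917 ± 80.1 to 606 ± 59.98 CPM (−0.60 ± 0.11, edgeR adjusted p = 0.0224), and Tek did not pass (−0.30 ± 0.13, adjusted p = 0.314). Leaving out WT replicate 1, WT replicate 2 or KO replicate 2 ended the call of Vwf (adjusted p of up to 0.173), as did the length and GC offset (0.161). DESeq2 and limma-voom each called 1 endothelial marker lower and 0 higher. At an edgeR unadjusted p below 0.05, 2 endothelial markers were lower and 0 higher. Of 4 tested mesothelial markers, among them Gpm6a (−0.41 ± 0.22) and Upk3b (0.94 ± 0.66), 0 passed by edgeR, DESeq2 or limma-voom and 0 had an unadjusted p below 0.05, though 1 rose without KO replicate 1. The same tests gave 0 for 7 carcinoma and keratin markers, with log2 differences of 0.23 ± 0.11 for Krt8 and −0.13 ± 0.11 for Krt19. Lung epithelium also expresses these keratins, so they do not measure the tumour load. The median of the carcinoma and keratin list was −0.05. It was above 0 without WT replicate 1 (0.02), WT replicate 2 (0.08) or KO replicate 3 (0.02).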
